A study of Mus musculus with 267 samples.

Results

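EGR2 binding in the first hours of the response to interleukin-4 (IL-4) was examined in the C57 time course by chromatin immunoprecipitation with sequencing (ChIP-seq), which counts DNA fragments that a protein holds. The 6 libraries were basal, 1 h of IL-4 and 6 h of IL-4, with 2 libraries in each group, out of 267 samples in the series. They were taken as the early libraries of the EGR2 time-course table, and all 30675 sites of that table were used. Every library came from bone marrow-derived macrophages (BMDMs) of the strain C57BL/6J, and the labels name no genetic alteration, age or sex for the mice. Marrow was differentiated for 7 days with M-CSF, so the cells are a culture model of macrophages outside their tissue. Basal cells received no IL-4, and the other groups received 20 ng/mL of mouse recombinant IL-4 for 1 or 6 h. The labels call the libraries biological replicates and do not say whether they came from separate mice, so the p-values measure the spread between these libraries. In the limma fits the 2 EGR2 libraries at 24 h entered only the estimate of that spread. They counted in the means that picked the strongest site of each listed gene. They also shaped the list of sites: 29407 of the 30675 sites (95.9%) overlap a peak of the 24 h list, so sites bound only in the first hours are few in it.

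EGR2 is a zinc finger transcription factor of the early growth response family. It binds G-rich DNA with the core GTGGGCG or close variants of it, and its gene is itself induced by IL-4 in macrophages. IL-4 acts on its receptor through JAK kinases, which phosphorylate STAT6, and STAT6 dimers bind paired half-sites (TTC, any 4 bases, then GAA). CISH and SOCS1 are feedback inhibitors of this cascade. H3K27ac, an acetyl mark on histone H3, accompanies active enhancers and promoters.

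The DNA below is from mm10 (GRCm38.p6, RefSeq), plus strand, 200 bp around the centre of a site. The first 3 windows are shown because EGR2 signal was high there after IL-4 and each holds a STAT6 motif, which is in capitals. They lie 12030 bp downstream of the Cish start (chr9:107307957-107308156, intergenic), 634 bp upstream of the Socs1 start (chr16:10786071-10786270, promoter) and 370 bp upstream of the Arg1 start (chr10:24927755-24927954, promoter).
Cish: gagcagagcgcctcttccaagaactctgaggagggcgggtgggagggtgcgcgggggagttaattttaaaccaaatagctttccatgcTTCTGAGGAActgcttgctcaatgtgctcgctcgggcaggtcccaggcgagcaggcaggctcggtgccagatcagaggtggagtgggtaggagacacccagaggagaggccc
Socs1: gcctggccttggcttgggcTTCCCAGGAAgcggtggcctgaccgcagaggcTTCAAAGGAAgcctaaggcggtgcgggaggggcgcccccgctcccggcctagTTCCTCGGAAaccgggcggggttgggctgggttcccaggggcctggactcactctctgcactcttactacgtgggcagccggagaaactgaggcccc
Arg1: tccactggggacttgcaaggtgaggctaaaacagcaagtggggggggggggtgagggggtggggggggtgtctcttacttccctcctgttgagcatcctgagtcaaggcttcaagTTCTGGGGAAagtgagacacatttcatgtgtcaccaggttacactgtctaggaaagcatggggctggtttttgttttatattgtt

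A second set shows windows that differ in motif content. The site 41211 bp upstream of the Csf1 start (chr3:107801581-107801780, intergenic) holds a STAT6 motif and an EGR motif of the form GTGGGTG, both in capitals. The site 42611 bp downstream of the Il31ra start (chr13:112551650-112551849, intron) holds repeats of the EGR motif, seen here as its reverse complement in capitals, and no STAT6 motif. The site 361 bp upstream of the Cdyl2 start (chr8:116733253-116733452, promoter) was low after IL-4 and holds several GC boxes (GGGCGG or its reverse complement, in capitals).
Csf1: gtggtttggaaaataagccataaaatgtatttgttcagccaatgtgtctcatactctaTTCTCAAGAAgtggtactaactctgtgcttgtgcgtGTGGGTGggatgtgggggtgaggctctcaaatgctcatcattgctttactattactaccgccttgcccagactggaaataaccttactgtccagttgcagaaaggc
Il31ra: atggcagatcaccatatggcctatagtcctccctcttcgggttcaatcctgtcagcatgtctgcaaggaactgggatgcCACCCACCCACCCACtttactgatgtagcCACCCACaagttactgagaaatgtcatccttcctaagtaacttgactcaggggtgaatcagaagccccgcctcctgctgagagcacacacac
Cdyl2: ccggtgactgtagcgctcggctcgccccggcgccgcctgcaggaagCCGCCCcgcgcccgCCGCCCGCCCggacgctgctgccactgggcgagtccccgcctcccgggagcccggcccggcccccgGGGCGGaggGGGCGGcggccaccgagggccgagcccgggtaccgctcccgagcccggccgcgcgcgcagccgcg

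The libraries differed within groups, which bears on every comparison below. Totals ran from 5728050 to 21353600 tags, and values are given as normalized tags, the tags in a site per 10000000 tags of the library. The share of tags that lay in sites was 10.8% and 14.2% in the basal replicates 1 and 2, 5.38% and 13.1% at 1 h, and 12.8% and 17.9% at 6 h. The median site held 22.01 and 26.9 normalized tags in basal cells, 9.94 and 26.0 at 1 h, and 22.7 and 36.7 at 6 h. Replicate 1 at 1 h therefore stood apart, with a median below that of every other library. Over all sites (n = 30675, log2 scale) replicates correlated with Pearson's r of 0.794 in basal cells, 0.718 at 1 h and 0.719 at 6 h. Replicate 2 at 1 h was closer to replicate 2 at 6 h (r = 0.870) than to its own replicate. It was also closer to both basal libraries (r = 0.777 and 0.794). Replicate 1 at 1 h was closer to replicate 1 at 6 h (r = 0.780) than to its own replicate. So was basal replicate 1 to replicate 1 at 24 h (r = 0.892), whereas basal replicate 1 and replicate 1 at 1 h gave r = 0.700. Macrophage identity was read from H3K27ac at promoters in the same time course. All 5 macrophage markers carried 75.7 to 804 normalized tags in the 8 libraries, whereas Col1a1 of fibroblasts carried 0 to 2.55. Ms4a1, a B cell marker, carried 11.6 to 94.1 and S100a8, a neutrophil marker, 9.64 to 83.2, while the T cell markers, Cd79a, Mpo, Elane, Col1a2 and Dcn had no region within 1000 bp of their start.

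**Figure D1:**
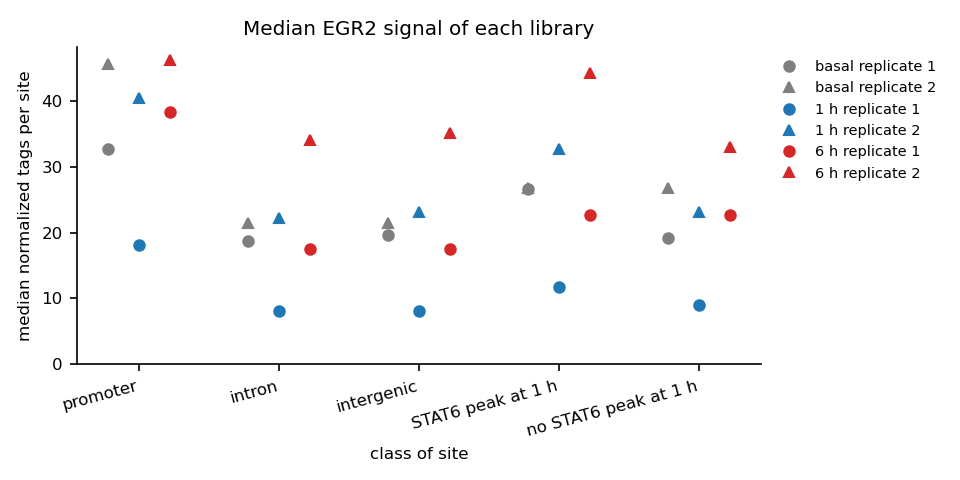
Median EGR2 normalized tags per site (y axis, linear) in each of the 6 libraries (circles, replicate 1; triangles, replicate 2) for 5 classes of site (x axis). Replicate 1 at 1 h is the lowest point in every class, and replicate 2 at 6 h is the highest.

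Whether EGR2 already changed its binding within 1 h of IL-4 was asked first. Sites near Cish, Socs1 and Arg1 carried more EGR2 in both 1 h libraries than in either basal library, and those of Socs1 and Arg1 were chosen after their values were seen. At the intergenic Cish site EGR2 carried 15.5 and 26.9 normalized tags in the basal replicates and 93.9 and 338 at 1 h. The groups did not overlap, and the ratio of group means (each plus 1) was 9.78-fold. At the Socs1 promoter site EGR2 carried 24.8 and 43.0 normalized tags in basal cells and 112 and 368 at 1 h, 6.91-fold higher. At the promoter of Arg1, the arginase of alternatively activated macrophages, the values were 1.87 and 4.03 in basal cells and 25.3 and 27 at 1 h, 6.87-fold higher. It was not the strongest EGR2 site within 50 kb of the Arg1 start, which was read with the gene lists below. A nearer site at the Socs1 start, 24 bp upstream, differed little, with 125 and 207 normalized tags in basal cells and 114 and 251 at 1 h, so the gain at Socs1 lay in 1 of the neighbouring sites. Since the chromatin came from bulk cultures, more cells with EGR2 at a site and more EGR2 per cell cannot be told apart.

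None of the 30675 sites passed the test at 1 h. With limma on log2(normalized tags + 1) over the 8 EGR2 libraries, the lowest Benjamini-Hochberg adjusted p was 0.841 and 0 sites were called, with 1085 at an unadjusted p under 0.05 (110 higher and 975 lower, and after median-ratio rescaling 896 and 797). If no site had changed, a share of 0.05 of the sites would be counted so. The 1085 fell short of that share, and the 1693 after rescaling were slightly above it. EdgeR also called 0 sites. DESeq2, which rescales each library by its median ratio over the sites, called 56 of 18781 sites (0.298%), all higher. For the Cish site the limma log2 change was 3.07 ± 0.70 (SE, n = 2 against 2), and the DESeq2 adjusted p was 2.27e-10. DESeq2 also called the Socs1 promoter site (adjusted p = 1.95e-07), the Arg1 promoter site (adjusted p = 0.00460) and the Il31ra intron site (adjusted p = 8.04e-06). The limma count rested on 1 library, because 3382 sites were called without replicate 2 at 1 h, 3370 of them lower, against 1 site, higher, without replicate 1.

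The 5 sites with the highest ratios at 1 h whose libraries did not overlap lay near Csf1, Sft2d2, Atg7, Pim1 and Arhgap10. Csf1 encodes M-CSF, the macrophage growth factor. Its distal site held 4 reads over both basal libraries (1.87 and 0 normalized tags), and 5.42 and 36.7 normalized tags at 1 h, a rate ratio of 14.8 (95% exact interval 5.38 to 56.6, counting error only). Pim1 encodes a survival kinase that is a classical STAT target. Its site 46773 bp upstream carried 1.87 and 4.03 normalized tags in basal cells and 13.6 and 66.5 at 1 h, 10.4-fold higher, and DESeq2 called it (adjusted p = 0.00313). The Sft2d2 site, in an intron 912 bp from the start of this vesicle transport gene, carried 3.75 and 0 normalized tags in basal cells and 6.32 and 54.97 at 1 h. At the intronic site of Arhgap10, a GTPase-activating protein, the values were 1.87 and 6.71 in basal cells and 9.03 and 95.5 at 1 h. Both differences came mostly from replicate 2. The site in Atg7, an enzyme of autophagy, held 3 basal reads (1.40 and 0 normalized tags) and 14.5 and 19.3 normalized tags at 1 h, a rate ratio of 16.1 (95% exact interval 5.09 to 81.8). All 5 windows hold a STAT6 motif. The Sft2d2, Pim1 and Arhgap10 sites overlap a STAT6 peak of the 1 h list, and the Csf1 and Atg7 sites do not. Only the Pim1 site overlaps an EGR2 peak of the 1 h list.

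Further sites were named after their values were seen, from those DESeq2 called at 1 h. Pim3 encodes a kinase of the same family as Pim1. Its site 6597 bp upstream carried 14.1 and 18.8 normalized tags in basal cells and 39.7 and 127 at 1 h, 4.85-fold higher. At an intronic site of Abcg1, a cholesterol exporter, EGR2 carried 7.49 and 6.71 normalized tags in basal cells and 45.2 and 82.0 at 1 h, 7.97-fold higher. The Cd69 site, 43815 bp downstream of the start of this leukocyte activation antigen, carried 17.3 and 21.5 normalized tags in basal cells and 118 and 72.3 at 1 h, 4.72-fold higher. In Creb5, a bZIP transcription factor gene, the intronic site 176227 bp from the start carried 6.09 and 6.71 normalized tags in basal cells and 17.2 and 57.9 at 1 h, 5.20-fold higher. In each of these, both 1 h libraries exceeded both basal libraries. The Abcg1 and Cd69 windows hold no STAT6 motif, and both sites overlap a STAT6 peak at 1 h.

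With values scaled to library totals, losses at 1 h outnumbered gains, and this order turned with the scaling and with 1 library. By the fold rule (group means plus 1 at least 2.5-fold apart, with at least 16 normalized tags in the higher group), 333 sites (1.09%) were higher and 1421 (4.63%) were lower at 1 h. With each library rescaled by its median ratio over the sites, 921 (3%) were higher and 548 (1.79%) lower, so the share of lower sites among those past the rule went from 81.0% to 37.3%. Both 1 h libraries lay above both basal libraries at 827 sites (2.7%) and below both at 7940 (25.9%), and after rescaling above at 4960 and below at 5267. The direction also turned with 1 library. Without replicate 1 at 1 h the fold rule gave 1140 higher and 544 lower sites, and without replicate 2 at 1 h 78 higher and 10631 lower. The median log2 ratio over all sites was -0.44 before and -0.01 after rescaling. The low share of tags in sites of replicate 1 at 1 h moved with these losses, and its part in them was not tested.

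The 5 sites with the lowest ratios at 1 h lay near Ccser1, Tbl1xr1, Cdyl2, Erf and Vps54. None of the 5 overlaps a peak of the basal EGR2 list. At the Ccser1 promoter EGR2 carried 4.68 and 65.8 normalized tags in basal cells and 0.900 and 0.960 at 1 h. The Tbl1xr1 site, 198032 bp upstream of this corepressor component, carried 11.2 and 21.5 in basal cells and 0 and 0.960 at 1 h. At the promoter of Cdyl2, a chromodomain protein, the values were 11.2 and 59.1 in basal cells and 0.900 and 3.86 at 1 h. The basal replicates of Ccser1, Cdyl2 and Vps54 differed widely, with replicate 2 the higher in each. In Erf, an ETS-family repressor, the intronic site carried 13.1 and 28.2 normalized tags in basal cells and 0 and 2.89 at 1 h. At the promoter of Vps54, a Golgi tethering subunit, it carried 9.37 and 29.6 in basal cells and 1.81 and 0.960 at 1 h. The windows of Ccser1, Cdyl2 and Vps54 hold a GC box and were 83.0%, 85.5% and 81.5% GC, and none of the 5 holds a STAT6 motif.

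**Figure D2:**
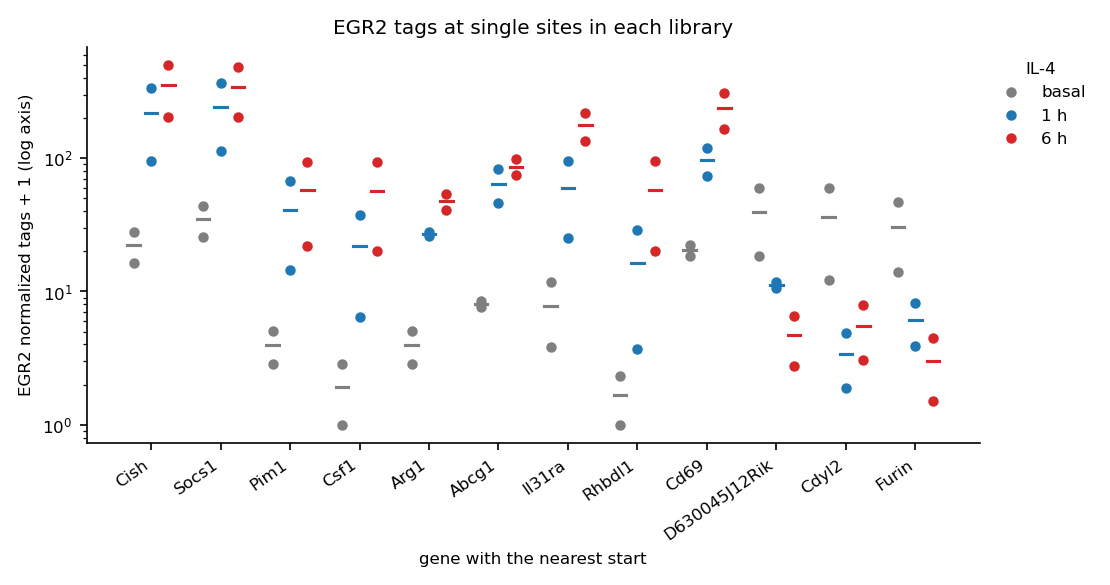
EGR2 normalized tags plus 1 (y axis, log scale) in each library (points) and the group mean (bars) for basal cells, 1 h and 6 h of IL-4 at 12 sites, each named by the gene with the nearest start (x axis). The first 9 sites are higher in both IL-4 groups than in basal cells, and the 3 at the right are lower in both IL-4 groups.

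At 6 h, with values scaled to library totals, 1961 of the 2227 sites past the fold rule were higher than in basal cells. Higher sites were also the larger part after median-ratio rescaling, as they were at 1 h on that scale, but without replicate 2 at 6 h the fold rule gave 1426 higher and 2733 lower. The site in an intron of Il31ra, the receptor subunit for interleukin-31, carried 2.81 and 10.7 normalized tags in basal cells, 24.4 and 93.6 at 1 h, and 134 and 217 at 6 h. Its 6 h ratio was 22.8-fold, both 6 h libraries lay above every earlier one, and the limma log2 change at 6 h was 4.68 ± 0.76 (SE, n = 2 against 2; adjusted p = 0.0717). At the intergenic Cish site EGR2 reached 203 and 500 normalized tags at 6 h, 15.9-fold above basal cells. The Rhbdl1 site, at the end of a gene 1281 bp upstream of the start of this rhomboid protease, held 1 read in basal cells (0 and 1.34 normalized tags) and 19.2 and 94.2 normalized tags at 6 h, a rate ratio of 223 (95% exact interval 39.5 to 8835, counting error only). EdgeR called these 3 sites and no other at 6 h (0.00978% of 30675), each with an adjusted p of 0.0461.

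Limma called 0 sites at 6 h, with 1169 at an unadjusted p under 0.05 (1063 higher and 106 lower, and after median-ratio rescaling 1344 and 752, with 2 called) and a lowest adjusted p of 0.0717. The 1169 were fewer than a share of 0.05 of the sites, and the 2096 after rescaling were more. DESeq2 called 95 of 22349 sites (0.425%), 85 higher (0.38%) and 10 lower (0.0447%). The limma count depended on single libraries, with 34 sites called without replicate 1 at 1 h, 139 without replicate 2 at 1 h and 20 without replicate 1 at 6 h. Without replicate 2 at 6 h it called 126, of which 111 were lower. By the fold rule 1961 sites (6.39%) were higher and 266 (0.867%) lower at 6 h. After median-ratio rescaling 1223 (3.99%) were higher and 518 (1.69%) lower, and the share of higher sites went from 88.1% to 70.2%. Both 6 h libraries lay above both basal libraries at 7664 sites (25%) and below both at 1813 (5.91%), but after rescaling above at 5208 and below at 5569, so the direction of this count turned.

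Csf1 and Sft2d2 were again among the 5 highest ratios at 6 h. The distal Csf1 site carried 19.2 and 92.2 normalized tags at 6 h, and the limma log2 change was 4.68 ± 0.97 (SE, n = 2 against 2; adjusted p = 0.224). DESeq2 called it (adjusted p = 0.00231). The Sft2d2 site carried 5.24 and 134 normalized tags at 6 h, so its difference rested on replicate 2. In an intron near Slc26a5, which encodes the motor protein prestin, 1 basal read (0 and 1.34 normalized tags) compared with 36.7 and 42.3 normalized tags at 6 h, a rate ratio of 118 (95% exact interval 20.7 to 4709). Here the 6 h replicates were close to each other.

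The sites that DESeq2 called at 1 h and that were described above were high at 6 h too. The Socs1 promoter site carried 203 and 480 normalized tags at 6 h, 9.80-fold above basal cells, and the Arg1 promoter site carried 40.2 and 53.0, 12.04-fold. The Pim1 site carried 20.95 and 93.2, the Pim3 site 78.6 and 190, the Abcg1 site 73.3 and 97.3, the Cd69 site 306 and 166, and the Creb5 site 22.7 and 110 normalized tags at 6 h. The 1 h and 6 h comparisons share their basal libraries, so these values are not a second, separate test.

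No site was called between 6 h and 1 h by limma, edgeR or DESeq2. Unadjusted limma p-values were under 0.05 at 2100 sites, 2097 of them higher at 6 h, against 1499 sites for edgeR and 659 for DESeq2. Only the limma count exceeded a share of 0.05 of the sites, and after median-ratio rescaling, with 1247 sites, it did not. After median-ratio rescaling limma gave 732 higher and 515 lower sites at an unadjusted p under 0.05, and the DESeq2 sites divided into 383 higher and 276 lower. The median limma log2 difference between 6 h and 1 h was 0.78 over all sites and 0.0095 after rescaling. With values scaled to library totals limma called 5608 sites, all higher at 6 h, without replicate 2 at 1 h.

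The 5 sites with the lowest ratios at 6 h lay near Furin, Ms4a18, Ptk2, D630045J12Rik and Cdyl2. Of these, only the D630045J12Rik site overlaps a peak of the basal EGR2 list. At Furin, a proprotein convertase, EGR2 carried 13.1 and 45.7 normalized tags in basal cells and 3.49 and 0.510 at 6 h. The Ms4a18 site, intergenic, carried 13.6 and 28.2 in basal cells and 0 and 2.55 at 6 h. At the promoter of Ptk2, the focal adhesion kinase, the values were 25.8 and 79.2 in basal cells and 0 and 9.68 at 6 h, and DESeq2 called it lower (adjusted p = 0.00894). The D630045J12Rik promoter carried 17.3 and 59.1 normalized tags in basal cells and 1.75 and 5.60 at 6 h, and the Cdyl2 promoter 6.98 and 2.04 at 6 h. DESeq2 also called the Furin and D630045J12Rik sites lower (adjusted p = 0.0358 for each). Replicate 2 was the higher basal library at all 5 sites. All 5 windows were between 80.0% and 86.5% GC.

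The 3 sites with the most EGR2 were strong before IL-4 and were not called at any time. The Faf1 promoter carried 788 and 1264 normalized tags in basal cells, 456 and 1198 at 1 h, and 1454 and 1240 at 6 h. The Sp4 promoter, of an SP-family transcription factor, carried 788 and 1123 in basal cells, 378 and 1088 at 1 h, and 1133 and 1244 at 6 h. A site on an unplaced scaffold carried 754 and 1163, 351 and 856, and 854 and 1569. At all 3 the low value at 1 h was in replicate 1.

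The Egr2 gene itself had 17 sites within 150 kb of its start. The site 1447 bp downstream carried 34.2 and 76.6 normalized tags in basal cells, 77.7 and 127 at 1 h, and 143 and 134 at 6 h. Both IL-4 groups lay above the basal libraries there, with ratios of 1.84-fold at 1 h and 2.48-fold at 6 h, short of the fold rule. The site 32 bp upstream of the start carried 62.8 and 152 in basal cells, 29.8 and 96.4 at 1 h, and 115 and 156 at 6 h, with overlapping groups. Of the other EGR2 partners, the promoter of Nab1, a corepressor that binds EGR proteins, carried 324 and 1436 normalized tags in basal cells, 378 and 492 at 1 h, and 566 and 361 at 6 h.

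Beyond these sites, 8 gene lists with 85 genes were read at the strongest site within 50 kb of each start, and 84 genes had one. The strongest site had the highest mean over the basal, 1 h, 6 h and 24 h libraries together. This choice can favour sites that are high after IL-4. Whether a site acts on the gene it was read for was not tested. At 1 h the fold rule passed 2 of the 84 as higher and 1 as lower, with a median log2 ratio of -0.39 against -0.44 over all sites. At 6 h it passed 9 as higher and 0 as lower, with a median of 0.43 against 0.24. Over all sites, which were not picked by their mean, 1.09% were higher at 1 h and 6.39% at 6 h. The list of the receptor, STAT6 targets and feedback genes had 1 of 12 members higher at each time, Cish. The sites read for Socs1 and Pim1 did not pass, so they were not those described above as higher. The IL-4 induced transcription factors had 1 of 7 higher at each time, the site read for Irf4. It lies 42495 bp into Dusp22 and carried 9.37 and 13.4 normalized tags in basal cells, 25.3 and 81.0 at 1 h, and 45.4 and 181 at 6 h.

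The alternative activation effectors had 0 of 20 members past the fold rule at 1 h and 6 of 20, all higher, at 6 h. The site read for Arg1 passed at neither time, so it was not the promoter site described above. The median log2 ratio of this list at 6 h was 0.72, and 0.39 after rescaling. Pdcd1lg2, the ligand PD-L2, carried 23.4 and 10.7 normalized tags at its promoter in basal cells and 45.4 and 60.1 at 6 h. The site read for Alox15, the 12/15-lipoxygenase gene, carried 2.81 and 4.03 in basal cells and 20.95 and 45.8 at 6 h, 7.78-fold higher. The site read for Clec10a, a lectin gene, carried 11.2 and 10.7 in basal cells and 15.7 and 52.0 at 6 h. In these 3 both 6 h libraries were above both basal libraries. At Chil3, a chitinase-like protein, the basal values of 6.56 and 6.71 lay between the 6 h values of 3.49 and 38.7. The Tmem26 site carried 7.02 and 22.8 in basal cells and 15.7 and 87.6 at 6 h, and the site of Tgm2, a transglutaminase, 20.6 and 45.7 in basal cells and 22.7 and 168 at 6 h, so these groups overlapped.

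The EGR family with its corepressors, the macrophage lineage genes, the inflammatory genes and the immediate early genes had no member past the fold rule at either time, of 6, 11, 13 and 10 genes with a site. Among the genes the study uses as examples, chosen on these data, 1 of 5 was lower at 1 h and 1 of 5 was higher at 6 h. The site read for Msx3, in Caly, carried 40.7 and 29.6 normalized tags in basal cells and 7.23 and 8.68 at 1 h. At 6 h it carried 40.2 and 38.2, so the 1 h libraries stood below all 4 others.

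The sites with early gains shared features the fold rule did not use. Of the 333 sites higher at 1 h, 85.3% overlapped a STAT6 peak of the 1 h list, against 36.3% of all 30675 sites, and 66.4% held a STAT6 motif within 200 bp, against 6.62% of all 30662 sites with sequence. The EGR core GTGGGCG was less common in them, at 4.50% against 12.03%, whereas the variant GTGGGTG was at 18.6% in both. Promoter sites made up 3.60% of them against 25.5% of all sites, and 45.6% lay in introns and 48.3% between genes. The promoter share was 9.01% after median-ratio rescaling and 5.13% to 12.7% with single libraries left out. Median basal values were 32.8 and 45.7 normalized tags at promoters and 18.7 and 21.5 in introns. The part of this starting level in the promoter share was not tested. Of the 1421 sites lower at 1 h, 24.4% overlapped a STAT6 peak and 1.20% held the STAT6 motif. All motifs were sought on both strands, and GTGGGCG and GC boxes can overlap.

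These shares depended on the library. Sites higher at 1 h numbered 1140 with replicate 2 alone, of which 71.8% overlapped a STAT6 peak and 46.8% held the motif. With replicate 1 alone there were 78 such sites, 35.9% of them with a STAT6 peak, close to the share of all sites, and 34.6% with the motif. Without basal replicate 2 the count was 733, and the shares were 46.0% and 33.0%. Under median-ratio rescaling 58.0% of the 921 sites had a STAT6 peak and 41.5% the motif. Of the 56 sites that DESeq2 called on all libraries, 87.5% had a STAT6 peak and 67.9% the motif. The low STAT6 peak share of sites lower at 1 h depended on the library too. It was 37.2% without basal replicate 2 and 38.2% without replicate 2 at 1 h, near the 36.3% of all sites. It was 18.7% without basal replicate 1, 20.2% without replicate 1 at 1 h and 19.5% under median-ratio rescaling.

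**Figure D3:**
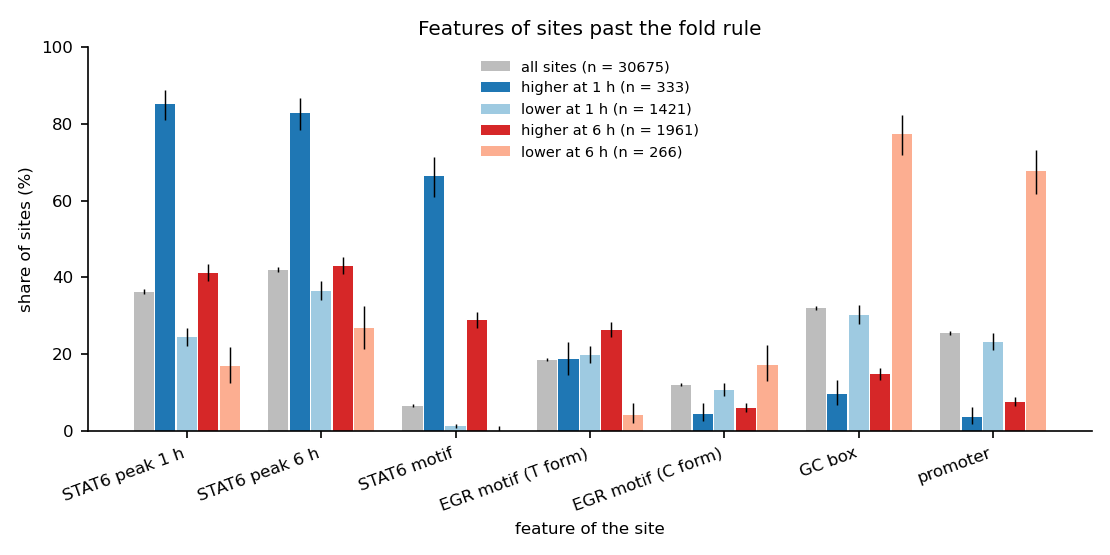
Share of sites (y axis, %, bars from 0) that overlap a STAT6 peak of the 1 h or 6 h list, hold a motif within 200 bp or lie at a promoter (x axis), for all sites and the 4 groups past the fold rule. Whiskers are exact 95% binomial intervals that cover counting error only. The T form is GTGGGTG and the C form GTGGGCG. Sites higher at 1 h stand out by STAT6 peaks (85.3%) and the STAT6 motif (66.4%), and sites lower at 6 h by GC boxes (77.4%) and promoters (67.7%).

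At 6 h the sites that were higher differed in make-up from those at 1 h. Of the 1961 sites, 43.0% overlapped a STAT6 peak of the 6 h list, next to 42.0% of all sites, and 28.8% held the STAT6 motif. The EGR variant GTGGGTG was present in 26.3%, against 18.6% of all sites, and GTGGGCG in 6.02%. Promoters made up 7.55%. Without replicate 2 at 6 h, 26.2% of the higher sites overlapped a STAT6 peak and 14.4% held the STAT6 motif, while GTGGGTG was at 26.7%. Without basal replicate 1 the STAT6 peak share was 54.5%, and without basal replicate 2 it was 29.6%. Of the 85 sites that DESeq2 called higher at 6 h, 72.9% overlapped a STAT6 peak of the 6 h list, 57.6% held the STAT6 motif and 34.1% held GTGGGTG.

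The motifs lay near the centres of the sites. Among sites higher at 1 h with a STAT6 motif, the nearest copy was a median of 31.0 bp from the centre, and 76.9% of them had one within 50 bp. Over all sites with the motif the median was 43.0 bp and the share 59.5%. For GTGGGTG at sites higher at 6 h the median was 18.5 bp, against 20.5 bp over all sites with that motif.

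**Figure D4:**
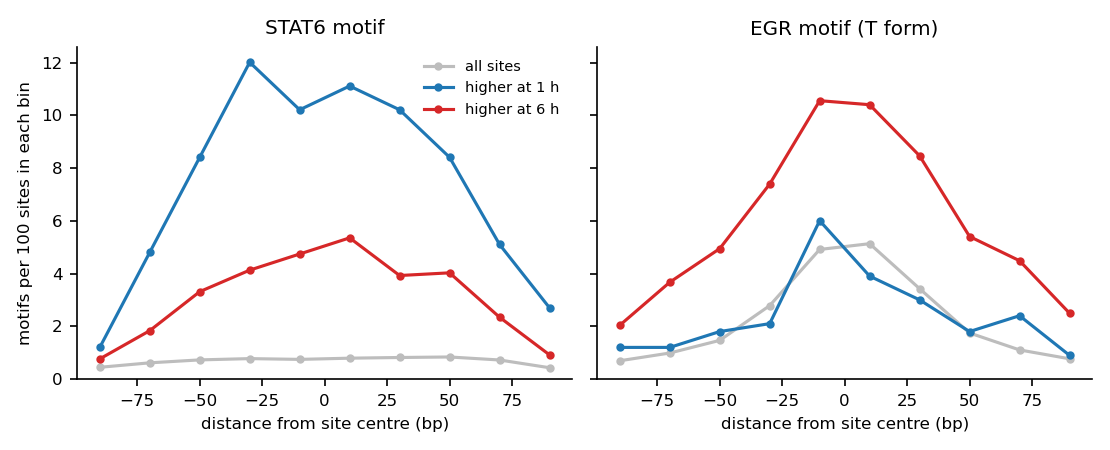
Number of motif copies per 100 sites in bins of 20 bp (y axis) by distance from the site centre in bp (x axis), for the STAT6 motif (left) and the EGR motif GTGGGTG (right), in all sites and in sites higher at 1 h or 6 h by the fold rule. Overlapping copies of a repeat are counted singly. The STAT6 motif is most frequent at sites higher at 1 h and GTGGGTG at sites higher at 6 h, both towards the centre.

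The 266 sites that were lower at 6 h formed a different class. Promoters made up 67.7% of them, 77.4% held a GC box against 31.99% of all sites, their median GC content was 79.0% against 53.0%, and 0 held the STAT6 motif, where 3 counts of 266 would allow a share of up to 1.13%. Over all 1907 sites of at least 75% GC, the median log2 ratio at 6 h was -0.39, with -0.19 in replicate 1 and -0.68 in replicate 2, and 187 of the 266 lay there. These losses followed basal replicate 2. Without it 104 sites were lower at 6 h, 24.0% of them at promoters and 27.9% with a GC box. Without replicate 2 at 6 h there were 2733, 14.4% at promoters and 17.97% with a GC box. The signal at GC-rich sites moved with the library here. The GC content of the fragments was not measured, and its part in the losses was not tested.

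By position, the median log2 ratio at 1 h was -0.42 at promoters, -0.44 in introns and -0.45 between genes. At 6 h it was 0.09 at promoters, 0.31 in introns and 0.30 between genes. After median-ratio rescaling these medians were 0.06, -0.03 and -0.06 at 1 h and -0.13, 0.03 and 0.01 at 6 h, so the sign at promoters turned at both times. The replicates disagreed in sign at 6 h, with -0.21 in replicate 1 and 0.64 in replicate 2 for introns, and -0.10 and 0.25 for promoters. The smallest p that a permutation of 2 against 2 libraries allows is 0.33, so no test was made of these medians.

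The deposited peak lists, which hold peaks reproducible between the replicates of a group of the same time course, were compared next. They contained 8437 peaks in basal cells, 13562 at 1 h and 13072 at 6 h. At 1 h 5919 peaks (43.6%, exact 95% interval 42.8 to 44.5) overlapped no basal peak, and at 6 h 5683 (43.5%, 42.6 to 44.3). Conversely, 794 basal peaks (9.41%) were absent from the 1 h list and 1048 (12.4%) from the 6 h list. With the lists cut to the length of the basal one the gains were 1873 and 2040. A column of the signal table also names the conditions in which each site is a peak, and it departs from the lists for the earliest groups: it marks 13601 sites as basal and 7422 as 1 h, whereas the 6 h and 24 h entries matched the lists. By that column 660 sites were gained at 1 h and 3089 at 6 h. Gains at both times are counted against the basal entries, so neither number of gained peaks can be settled here. Of sites gained at 1 h by the lists, 50.1% overlapped a STAT6 peak of the 1 h list, against 36.3% of all sites. For the basal STAT6 list the shares were 51.8% and 41.4%. The STAT6 motif was held by 11.3% of the gained sites, against 6.62% of all sites.

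H3K27ac in the same time course, from separate libraries, was compared as an independent readout. Of 77955 regions of 1000 bp, 27152 held the centre of an EGR2 site (neighbouring regions can overlap). Limma called H3K27ac higher at 1 h in 1.37% of all regions and lower in 8.36%, and at 6 h higher in 2.67% and lower in 2.46%. The 328 regions with an EGR2 site that was higher at 1 h had 65 (19.8%) called higher and 3 called lower at 1 h, and 107 (32.6%) called higher and 0 lower at 6 h. Their median log2 change was 0.88 at 1 h and 1.53 at 6 h, against -0.63 and -0.14 over all regions. The 1496 regions with an EGR2 site that was higher at 6 h had 234 (15.6%) called higher and 22 lower at 6 h. The 263 regions with a site that was lower at 6 h had 4 called higher and 2 lower at 6 h.

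The H3K27ac counts moved with single libraries. In the 328 regions, 10 were called higher at 1 h without H3K27ac basal replicate 2, 36 without basal replicate 1, 24 and 25 without 6 h replicates 1 and 2, and 88 without replicate 2 at 1 h, which had 20.5% of its tags in regions against 44.0% to 69.7% in the other 5 early libraries. At 6 h the count ranged from 26 without replicate 2 at 6 h and 27 without replicate 1 at 6 h to 143 without either 1 h library, and was 60 without basal replicate 2. In the 1496 regions, 50 and 49 were called higher at 6 h without replicates 1 and 2 at 6 h, 125 without basal replicate 2, and 326 and 325 without either 1 h library. In all of these fits fewer regions were called lower than higher at 6 h.

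At several single sites H3K27ac was called higher too. The mark around the intergenic Cish site was 4.75 and 1.43 normalized tags in basal cells, 39.4 and 19.6 at 1 h, and 87.0 and 105 at 6 h, a limma log2 change of 2.95 ± 0.59 (SE; adjusted p = 0.0132) at 1 h and 4.69 at 6 h (adjusted p = 0.000369). Around the Creb5 site it was 5.43 and 2.85 in basal cells, 86.6 and 30.3 at 1 h, and 159 and 199 at 6 h, with limma adjusted p-values of 0.00967 and 0.000286. The Pim1 and Il31ra regions were called by limma at both times, with adjusted p-values of 0.0153 and 0.0277 at 1 h and 0.000299 for each at 6 h. The Arg1 promoter started from 65.1 and 59.9 normalized tags and reached 434 and 123 at 1 h and 555 and 233 at 6 h, with limma adjusted p-values of 0.0664 and 0.0302. The Socs1 promoter was already marked in basal cells, with 309 and 117 normalized tags, and was not called at 1 h (limma adjusted p = 0.159) or 6 h (0.0880). The Sft2d2 region, by contrast, carried 145 and 286 in basal cells and 259 and 214 at 6 h (limma adjusted p = 0.888), although its EGR2 values were among the highest ratios. The Atg7 region was lower in H3K27ac at 1 h, with 237 and 306 normalized tags in basal cells and 99.7 and 88.8 at 1 h, and was not called (limma adjusted p = 0.0840).

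**Figure D5:**
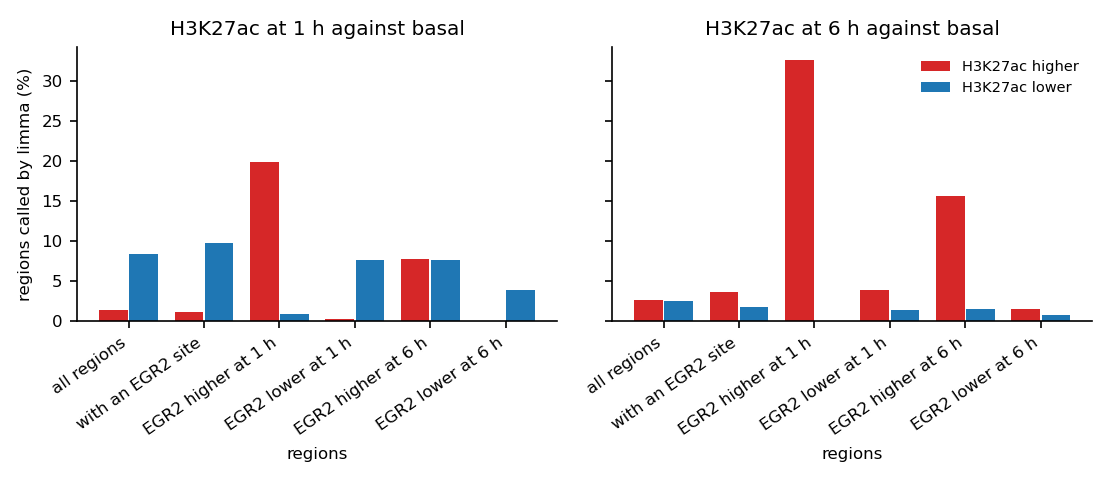
Share of 1000 bp regions (y axis, %, bars from 0) called higher or lower in H3K27ac by limma at 1 h (left) and 6 h (right) against basal cells, for all 77955 regions, the 27152 with an EGR2 site and those whose site passed the EGR2 fold rule (x axis). Regions whose EGR2 site was higher at 1 h have the largest share called higher, 19.8% at 1 h and 32.6% at 6 h.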

How the data were processed

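EGR2 ChIP-seq in C57BL/6J BMDMs, cross-linked with disuccinimidyl glutarate and formaldehyde, was taken from the signal table of the time course, with groups and replicates from the sample titles. The authors aligned reads to mm10 with Bowtie2, called peaks with HOMER, kept peaks reproducible between replicates (IDR) and merged them into sites. The deposited values are a signal: tags within each site, scaled by the authors to 10000000 tags per library. The deposited peak lists carry a score, which was used only to rank peaks, with ties ordered by peak count. A peak is therefore shared by a whole group and not by a library. Whole reads were recovered for all values (tolerance 0.1 read), and 1 normalized tag was worth 0.573 to 2.14 reads in the 6 early libraries. Scaling to all tags leaves differences in the share of tags within sites in the values.

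Limma 3.58.1 (R 4.3.3; trend, 8 libraries in 1 fit, log2(normalized tags + 1), no filter) was the main test, with Benjamini-Hochberg adjustment over all 30675 sites and a threshold of 0.05. H3K27ac was tested likewise over 77955 regions. EdgeR 4.0.16 and DESeq2 1.42.0 were run on the recovered reads as alternatives. Fold changes of limma are on the log2(value + 1) scale and understate those of weak sites. A fold rule on group means (plus 1, 2.5-fold, at least 16 normalized tags in the higher group) carries no test. Lists overlapped by at least 1 bp. Windows of 200 bp were read from GRCm38.p6, the build of the files. Intervals (95%, exact) cover counting error only, since PCR copies are not separate molecules.

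The named sites were the 5 with the highest and the 5 with the lowest ratios at each time among those past the fold rule with separate replicates, the 3 with the highest means and those of the gene lists. Socs1 (634 bp upstream), Arg1 (370 bp upstream), Pim3, Abcg1, Cd69 and Creb5 were added after their values were seen. The sites, lists and comparisons were chosen with earlier results of these data known. Alternatives covered scaling, pseudocount, filter, fold, minimum, libraries left out, a replicate block, peak lists and motif window. Methods were tested on simulated data. The values of some listed genes are not reported here. Tables were made with Python 3.11.15, bedtools 2.31.1 and samtools 1.23.1.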

Additional observations from a re-analysis of the deposited data

How the results depend on the processing

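The number of EGR2 sites called by limma at 1 h (0) was 56 with DESeq2, 117 with median-ratio scaling without replicate 2 at 1 h, and 0 to 3382 with single libraries left out. At 6 h (0) it was 95 with DESeq2, 3 with edgeR, 2 with TMM scaling, 2 with median-ratio scaling, 2 with a filter of 16 normalized tags, 3 with only the 2 groups compared, 24 with a pseudocount of 5, and 0 to 139 with single libraries left out. Between 6 h and 1 h (0) it was 21 with median-ratio scaling without replicate 2 at 1 h, and 0 to 5608 with single libraries left out. Where an arm was left with 1 library, that library was assumed to vary like the other groups. Median-ratio scaling combined with leaving out a 1 h library was added after seeing the data.

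The labels do not say what a replicate number shares, and the values were mixed: deviations from the group means correlated with r = 0.0138 between basal cells and 1 h and -0.0728 between basal cells and 6 h, but 0.466 between 1 h and 6 h and 0.357 between basal cells and 24 h. Since not every pair of groups was above 0.1, the numbers were not taken as a pairing. With a replicate block 60 EGR2 sites were called at 6 h. For H3K27ac regions with an EGR2 site the block gave 830 higher and 7836 lower at 1 h, and 2336 higher and 1436 lower at 6 h.

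Sites past the fold rule numbered 1754 at 1 h and 4139 with a 2-fold rule, 746 with a pseudocount of 5, 791 with a minimum of 32 and 1684 to 10709 with single libraries left out. At 6 h the 2227 became 4238 with a 2-fold rule, 1426 with a pseudocount of 5 and 3016 to 4159 with single libraries left out. Peaks gained at 1 h were 1873 with lists of equal length. They were 2856 with the better-ranked part of each list, down to its middle rank, and 660 by the conditions named for each site. At 6 h these numbers were 2040, 2848 and 3089. H3K27ac regions with an EGR2 site called higher at 1 h (301) were 513 and those called lower (2630) were 262 under median-ratio scaling. With single libraries left out they were 33 to 611 and 22 to 11907 at 1 h, and 83 to 1543 higher and 5 to 1348 lower at 6 h (966 and 479). In a 100 bp window GTGGGCG was found in 9.48% of sites, GTGGGTG in 14.9%, the STAT6 motif in 3.53% and the GC box in 24.9%.

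The log2 ratio turned in sign at some named sites, none of which limma called. At 1 h it became 0.168 at Faf1 with median-ratio scaling, 0.169 with TMM scaling and 0.155 with DESeq2, and at Sp4 0.0481, 0.0493 and 0.0470. With single libraries left out it ran from -1.13 to 0.263 at Faf1 and from -1.31 to 0.210 at Sp4. At Chil3 the same alternatives gave 0.461, 0.464 and 0.485 at 1 h, with -0.468 to 0.342 at 1 h and -0.766 to 2.38 at 6 h when libraries were left out. At Tgm2 the 1 h value became 0.0884, 0.0896 and 0.457, and 0.272 with edgeR, with -2.12 to 1.21 at 1 h and -0.422 to 2.41 at 6 h when libraries were left out. At the Caly site the 6 h value became -0.0534, -0.0677 and -0.108, with -0.0556 to 0.395 when libraries were left out. Leaving out single libraries also gave a range of -0.712 to 1.61 at 1 h at the site read for Clec10a, nearest to Slc16a11. At 6 h it gave -3.33 to 0.230 at Ccser1, -0.818 to 0.231 at Erf, -0.134 to 0.744 at the unplaced scaffold and -0.176 to 1.08 at the site 32 bp upstream of Egr2. Without basal replicate 1 the unplaced scaffold was at -0.0069. The position medians, with no test, ran with libraries left out from -1.14 to 0.03 at promoters, -1.32 to 0.05 in introns and -1.35 to 0.07 between genes at 1 h, and from -0.10 to 0.32, -0.21 to 0.64 and -0.29 to 0.65 at 6 h. With 2 libraries a group and an uneven share of tags in sites, small changes could not be resolved. The cause of these dependences was not tested.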
